A study of Rattus norvegicus with 6 samples.

Results

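The let-7 and miR-98 family of the rat hypothalamic arcuate nucleus (ARC) is described here by its 9 mature 5p miRNAs, which were chosen by name and were all present among the 562 miRNAs listed for each library. RNA of the ARC was sequenced on Day 14 in 3 libraries of sham-operated rats, in which the left infraorbital nerve was exposed and not ligated, and in 3 libraries of CCI-ION rats, in which loose silk ligatures were placed around that nerve (chronic constriction injury, a model of trigeminal neuropathic pain). Both groups were Sprague-Dawley rats of 8-10 weeks, males unless the study's methods state otherwise, and the labels name no transgene or drug for either group. The tissue was dissected whole, so that fewer cells of a type and less RNA per cell cannot be told apart. Nothing in the labels says how many rats went into a library, and n counts libraries throughout. A legend of the study gives more rats per group than there are libraries here, without saying whether rats were pooled.

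let-7 was first found in the nematode as a regulator of developmental timing, and in mammals it became a family of near-identical miRNAs made from many genes. The bases from position 2 to 8, the seed, pair with target mRNAs, and because the seed is shared the members are expected to bind overlapping targets, among them transcripts for the RNA-binding protein LIN28, the chromatin protein HMGA2 and RAS proteins. LIN28 in turn blocks maturation of let-7 precursors, and mature let-7 miRNAs accumulate as neurons differentiate and are abundant in the adult brain. Each hairpin gives a 5p strand, which is the dominant product, and a 3p strand that is mostly degraded.

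The 9 mature sequences below, taken from RefSeq (build GRCr8) and written 5′ to 3′, are shown because the members differ by only a few bases; capitals mark the seed.
rno-let-7a-5p: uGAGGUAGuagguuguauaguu
rno-let-7b-5p: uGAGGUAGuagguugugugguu
rno-let-7c-5p: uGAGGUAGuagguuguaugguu
rno-let-7d-5p: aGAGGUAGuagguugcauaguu
rno-let-7e-5p: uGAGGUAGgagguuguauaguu
rno-let-7f-5p: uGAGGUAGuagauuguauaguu
rno-let-7g-5p: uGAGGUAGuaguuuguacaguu
rno-let-7i-5p: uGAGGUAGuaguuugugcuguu
rno-miR-98-5p: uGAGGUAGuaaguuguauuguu

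All 9 were 22 bases long and held the seed GAGGUAG. Of the 511 listed miRNAs that matched a RefSeq mature sequence by name, 9 held this seed, and 0 of them lay outside the family. Members differed from one another by 1 to 6 bases. With positions counted from 1 at the 5′ end and let-7a-5p as the reference, let-7c-5p differed by A19G, let-7e-5p by U9G and let-7f-5p by G12A. let-7b-5p differed by A17G and A19G, let-7d-5p by U1A and U16C, let-7g-5p by G12U and U18C, and miR-98-5p by G11A and A19U. let-7i-5p was the most distant, with G12U, A17G, U18C and A19U. How the authors assigned reads that fit more than 1 member was not given in the sources used here, so reads could be split between members, and the single values carry that uncertainty.

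In RefSeq build GRCr8 the mature miR-98-5p lies on the plus strand at chrX:24460663-24460684 inside the span of Huwe1, which encodes a ubiquitin ligase, and one of the copies of let-7f-5p lies beside it at chrX:24460052-24460073. The other copy of let-7f-5p lies at chr17:16320508-16320529, between the genes for let-7a-5p (chr17:16320145-16320166) and let-7d-5p (chr17:16322273-16322294). let-7a-5p and let-7c-5p also have 2 copies each, so the reads of a mature miRNA do not tell which of its genes was transcribed. The deposited values carry no positions, and these come from the annotation alone.

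Library totals ranged from 11115049 to 14313839 reads in sham rats and from 8628309 to 11297551 reads in CCI-ION rats, of which replicates 2 and 3 lay below every sham library. The values used are normalized counts, that is, reads of a library over its size factor. The lowest value of any member, miR-98-5p in CCI-ION replicate 2, rested on 4262 reads, so every member was far above the smallest listed value of 5 reads in each library.

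The family was abundant in the ARC and its summed level was lower after CCI-ION. The 9 members together took 15.5%, 15.4% and 16.2% of all miRNA reads in sham libraries 1 to 3 (15.7% ± 0.429, SD, n = 3) and 14.4%, 14.2% and 13.3% after CCI-ION (13.9% ± 0.590, SD, n = 3). In normalized counts the sum was 1971313, 1738812 and 1951119 in the sham libraries and 1510165, 1489784 and 1368731 in the CCI-ION libraries. Every CCI-ION library lay below every sham library on both scales, and in normalized counts 21.3% of all single miRNAs tested did so too. Of the difference of -430855 normalized counts, -383140 lay in let-7f-5p, let-7g-5p, let-7i-5p and miR-98-5p. The other 5 members summed to 682793 in sham and 635078 in CCI-ION rats, with overlapping groups. The difference of the summed family was -0.37 on the log2 scale (standard error 0.073), larger than the SD between libraries, 0.10 in sham and 0.077 in CCI-ION rats. It was -0.17 when libraries were scaled by their totals and -0.62 with upper-quartile factors, so that the direction held and the size depended on the scale. No test was made of the sum, and the members were chosen with earlier results known.

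The size of the difference varied among members. miR-98-5p, the rarest member, was the one that fell past the threshold, let-7f-5p, let-7g-5p and let-7i-5p were lower with groups that did not overlap, and the remaining 5 members had overlapping groups. With limma on log2(normalized count + 1) over the 555 miRNAs tested, 1 of the 9 members, miR-98-5p, passed the threshold (adjusted p under 0.05) as lower, against 3.42% of all miRNAs called lower. As higher, 0 members passed, against 3.42% of all miRNAs called higher, and 4 of the 9 members, against 183 of all 555 miRNAs, had an unadjusted p under 0.05, the 4 members all lower in CCI-ION rats. The groups did not overlap in the lower direction for 4 of the 9 members, against 21.3% of all miRNAs, and in the higher direction for 0 members, against 19.5%. The median log2 fold change was -0.24 over the members and -0.01 over all miRNAs tested.

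**Figure D1:**
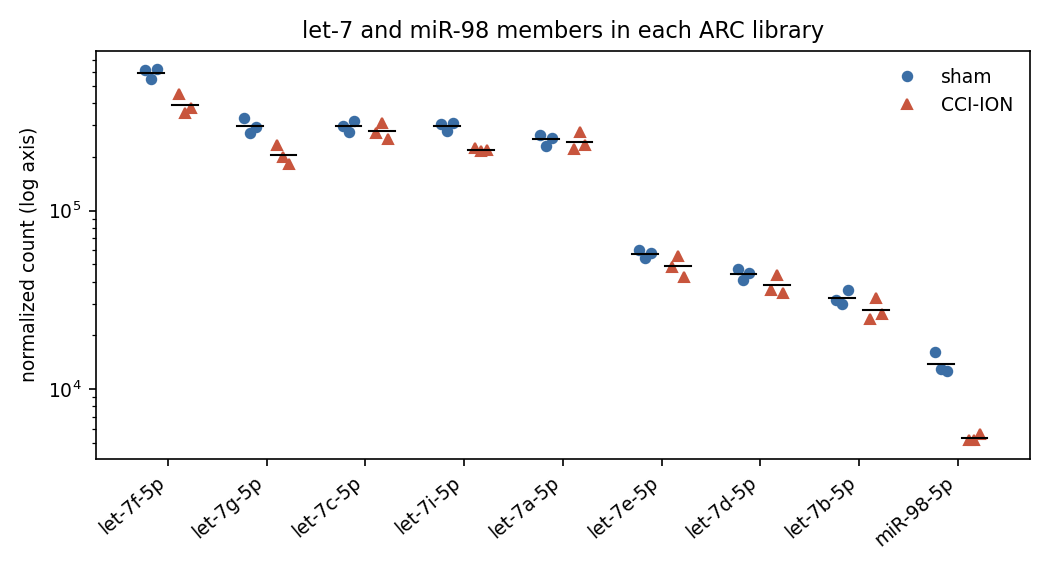
Normalized count (log axis) of each member in each library, ordered by the sham mean, with sham libraries as circles, CCI-ION libraries as triangles and group means as lines. The CCI-ION libraries lie below all sham libraries for let-7f-5p, let-7g-5p, let-7i-5p and miR-98-5p, and the groups overlap for the other 5 members.

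rno-miR-98-5p had 16044, 12971 and 12599 normalized counts in sham libraries 1 to 3 (13871 ± 1891, SD, n = 3) and 5208, 5190 and 5640 after CCI-ION (5346 ± 255, SD, n = 3). The 3 CCI-ION libraries were close together, whereas sham replicate 1 was above the other sham libraries, and the groups were far apart. limma put the log2 fold change at -1.37 with a standard error of 0.14 (Benjamini-Hochberg adjusted p = 0.00969), the 28th lowest of the 555. Without any single library it was between -1.43 and -1.26 and passed the threshold each time (adjusted p from 0.0182 to 0.0403, limma). In these fits 4 to 20 of the 553 to 557 miRNAs tested were called lower.

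rno-let-7f-5p, the most abundant member, had 615824, 543029 and 619104 normalized counts in sham rats and 448190, 352714 and 374465 in CCI-ION rats. CCI-ION replicate 1 was the highest of its group and still lay below all sham libraries. Its log2 fold change of -0.60, with a standard error of 0.14, missed the threshold (adjusted p = 0.0597, limma).

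rno-let-7g-5p had 330796, 271708 and 295816 normalized counts in sham rats and 232300, 200414 and 182779 in CCI-ION rats. Its highest CCI-ION library was again replicate 1, and the groups were apart. At a log2 fold change of -0.55, with a standard error of 0.14, it missed the threshold (adjusted p = 0.0815, limma).

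rno-let-7i-5p had 304850, 279924 and 310199 normalized counts in sham rats and 223116, 215575 and 217855 in CCI-ION rats, the tightest CCI-ION group relative to its mean. Its log2 fold change of -0.45, with a standard error of 0.10, also missed it (adjusted p = 0.0597, limma). These 3 members lay near the threshold. The call depended on which miRNAs were tested beside them, the spread assumed and the scaling of libraries. With upper-quartile factors all 3 passed (adjusted p from 0.0193 to 0.0287, limma), where 84 of 555 miRNAs were called lower. With library totals none of the 3 passed (adjusted p from 0.102 to 0.160, limma), where 9 of 555 were called lower. All 3 passed with an intensity trend in limma (adjusted p from 0.0160 to 0.0248), where 7.93% of all miRNAs were called lower. They also passed among the 364 miRNAs averaging 100 or more (adjusted p from 0.0218 to 0.0315, limma), where 14% were called lower. Whichever library was omitted, none of these 3 passed (0 calls, adjusted p from 0.0570 to 0.210, limma), in fits where 4 to 20 of the 553 to 557 miRNAs tested were called lower.

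The groups overlapped for the other 5 members. rno-let-7a-5p had 266908, 229103 and 255208 normalized counts in sham rats and 220353, 275550 and 231969 in CCI-ION rats, with the highest value of all in CCI-ION replicate 2 (log2 fold change -0.05, standard error 0.14, adjusted p = 0.827, limma). rno-let-7c-5p had 298291, 277404 and 319652 normalized counts in sham rats and 271781, 308662 and 252401 after CCI-ION (log2 fold change -0.11, standard error 0.13, adjusted p = 0.571, limma). CCI-ION replicate 2, which had the lowest let-7f-5p of all libraries, thus had the highest let-7a-5p of all libraries and the highest let-7c-5p of its group. rno-let-7e-5p went from 57285 ± 3053 to 48909 ± 6495, rno-let-7d-5p from 44209 ± 3249 to 38203 ± 4854, and rno-let-7b-5p from 32444 ± 3071 to 27727 ± 4018 normalized counts (SD, n = 3 each). Their log2 fold changes were -0.24, -0.22 and -0.23, with adjusted p from 0.272 to 0.317 (limma). For these 5 members a p above the threshold does not show that the groups are equal.

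**Figure D2:**
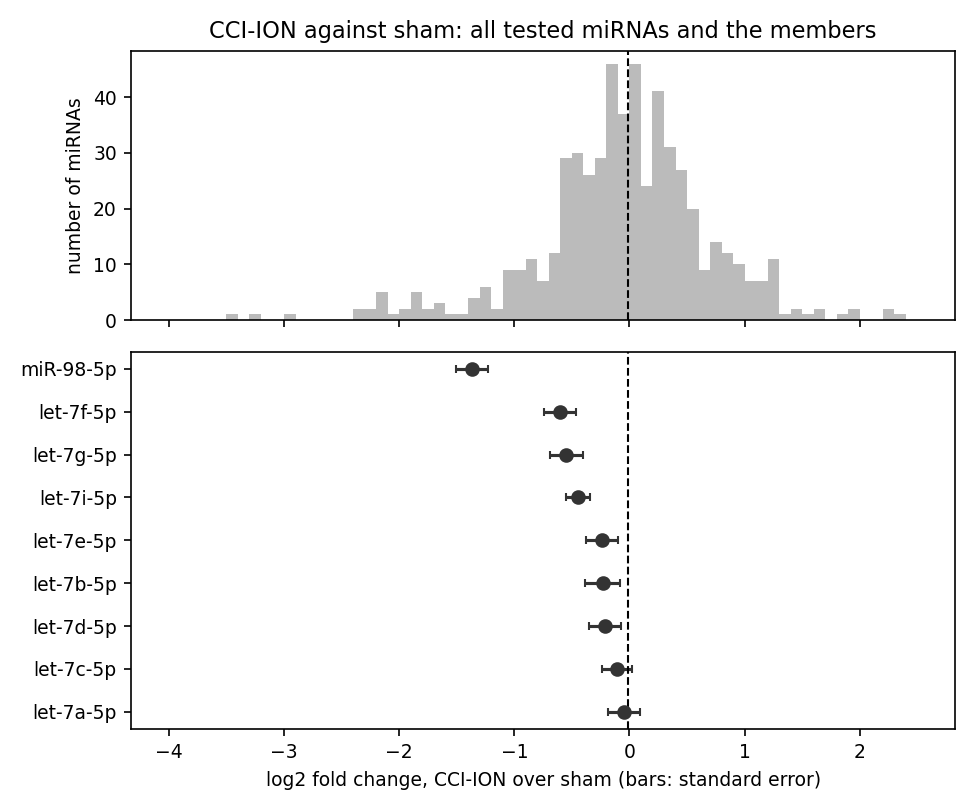
Upper panel, number of miRNAs by log2 fold change of CCI-ION over sham for the 555 miRNAs tested; lower panel, the same quantity for each member, with bars for the standard error and a dashed line at the median of all miRNAs, -0.01. miR-98-5p lies at -1.37, let-7f-5p, let-7g-5p and let-7i-5p between -0.60 and -0.45, and the other 5 members between -0.24 and -0.05.

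The size and, for members near 0, the sign depended on how libraries were scaled. Over all miRNAs tested, the median was 0.17 (log2 fold change) with library totals and -0.26 with upper-quartile factors. Relative to that median, let-7f-5p was at -0.59 with the deposited scale, -0.57 with library totals and -0.59 with upper quartiles, and miR-98-5p was at -1.35, -1.33 and -1.36. let-7a-5p and let-7c-5p changed sign with library totals, to 0.15 and 0.095, and let-7a-5p also with totals that left out miR-7a-5p, the most abundant miRNA, to 0.0030. Relative to the median of all miRNAs they were at -0.01 and -0.07 with library totals, and let-7a-5p was at -0.02 with totals that left out miR-7a-5p. With size factors computed without the 9 members let-7f-5p was at -0.61 and miR-98-5p stayed at -1.37.

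**Figure D3:**
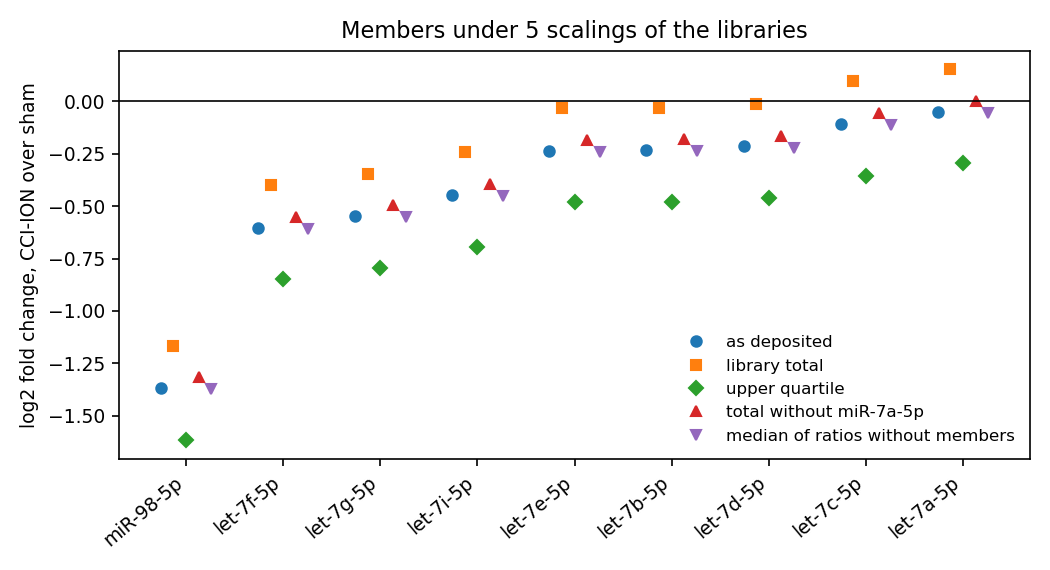
Log2 fold change of CCI-ION over sham for each member under 5 scalings of the libraries. The scalings move all members up or down together, from -1.62 to -1.17 for miR-98-5p and from -0.30 to 0.15 for let-7a-5p, and leave the order of miR-98-5p, let-7f-5p, let-7g-5p and let-7i-5p below the other members.

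Shares within the family are free of the scaling of libraries, since each is taken within a library. let-7f-5p made up 31.2%, 31.2% and 31.7% of the summed family in sham libraries 1 to 3 and 29.7%, 23.7% and 27.4% after CCI-ION. let-7a-5p made up 13.5%, 13.2% and 13.1% in sham, against 14.6%, 18.5% and 16.9% after CCI-ION, and let-7c-5p 15.1%, 16.0% and 16.4% in sham, against 18.0%, 20.7% and 18.4% after CCI-ION. For these 3 members the groups did not overlap. The shares of let-7d-5p (2.34% ± 0.0419 to 2.62% ± 0.282) and let-7e-5p (3.04% ± 0.0748 to 3.35% ± 0.334; SD, n = 3 each) were also higher in each CCI-ION library than in any sham library. The shares of a library sum to the whole, so a lower share of one member raises those of others; the normalized counts of these 4 members with higher shares overlapped between groups. let-7i-5p had a share of 15.8% ± 0.324 in sham and 15.1% ± 0.763 after CCI-ION (SD, n = 3 each), with overlapping groups. miR-98-5p was a small part, 0.735% ± 0.0846 in sham and 0.368% ± 0.0378 after CCI-ION (SD, n = 3 each).

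**Figure D4:**
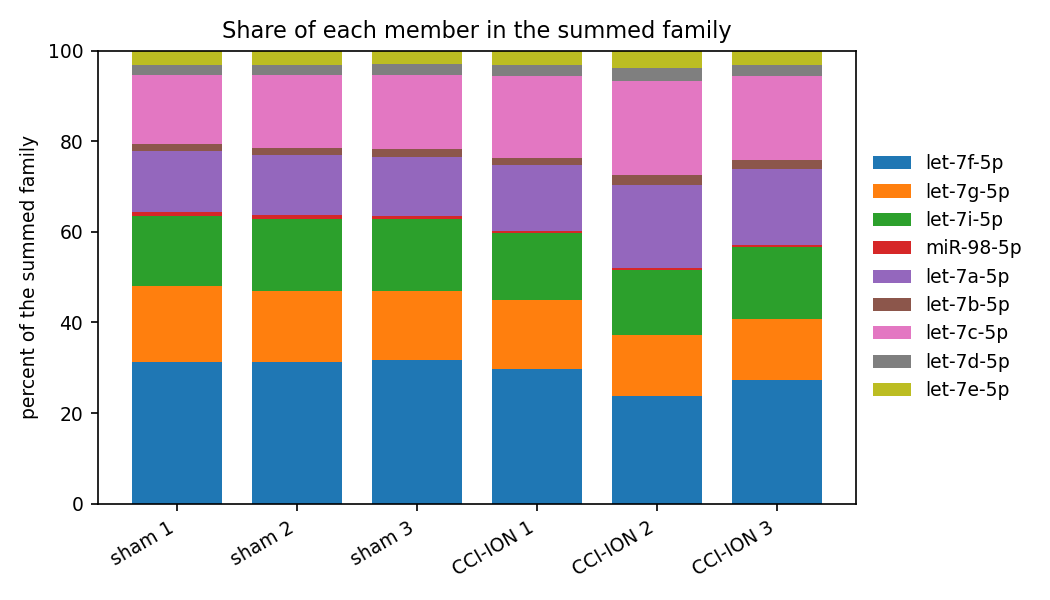
Share of each member in the summed family, in percent, for each library. let-7f-5p takes 31.2% to 31.7% in the sham libraries and 23.7% to 29.7% in the CCI-ION libraries, and let-7a-5p and let-7c-5p take more in every CCI-ION library than in any sham library.

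The ratio of miR-98-5p to the sum of the other members was 0.00821, 0.00752 and 0.00650 in sham, against 0.00346, 0.00350 and 0.00414 after CCI-ION. On the log2 scale the mean ratio was -7.08 ± 0.17 in sham and -8.08 ± 0.14 after CCI-ION (SD, n = 3 each). An exact two-sided permutation test gave p = 0.1, the smallest that 3 libraries against 3 allow. Groups that do not overlap always give this value, and the members were chosen with earlier results of these data known. The 5 ratios that follow were chosen after the values were seen and are given as a description, on the log2 scale for the differences. let-7f-5p over let-7a-5p, which differ by a single base and share a locus on chromosome 17, was 2.31, 2.37 and 2.43 in sham, against 2.03, 1.28 and 1.61 after CCI-ION, a difference of -0.55. miR-98-5p over let-7f-5p, which share the locus on chromosome X, differed by -0.77. let-7d-5p over let-7a-5p, also from the locus on chromosome 17, was 0.176, 0.177 and 0.176 in sham, against 0.164, 0.159 and 0.150 after CCI-ION, a difference of -0.17. In these 3 ratios every CCI-ION library lay below every sham library, a separation known when they were chosen. let-7g-5p over let-7i-5p, members that both carry G12U, differed by -0.10 and let-7a-5p over let-7c-5p by 0.06, both with overlapping groups.

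The members that did not overlap between groups also differed from the rest in the middle of the sequence, a division that was seen in the data and was not tested. let-7a-5p, let-7b-5p, let-7c-5p, let-7d-5p and let-7e-5p carry the letters AGGUUG at positions 10 to 15, whereas let-7f-5p (G12A), let-7g-5p and let-7i-5p (G12U) and miR-98-5p (G11A) do not. Searched on the RNA strand alone, these letters occurred in 14 of the 511 listed miRNAs with a sequence (2.74%), of which 5 were members. The 4 members without them summed to 1204288 ± 85021 normalized counts under sham, against 821149 ± 75998 after CCI-ION (SD, n = 3 each), and the 5 with them to 682793 ± 44956 and 635078 ± 70304 (SD, n = 3 each). The division was drawn after the lower values of the 4 were seen, so these sums restate it and are no test of it. The miRNAs outside the family that hold these letters were not compared between groups as a set. GC content was 31.8% in let-7f-5p and miR-98-5p, the members with the lowest log2 fold changes (-0.60 and -1.37). It was 36.4% in let-7g-5p and let-7a-5p, 40.9% in let-7i-5p, let-7c-5p, let-7d-5p and let-7e-5p, and 45.5% in let-7b-5p. The values 36.4% and 40.9% thus occurred on both sides of the division. A relation of GC content to the change within the family was not tested. Across the 506 tested miRNAs with a sequence, GC content and log2 fold change had a Spearman's rho of 0.13, given as a description, since the miRNAs share the same 6 libraries.

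Of the 3p strands of the same hairpins, 12 were listed by name. The names let-7a-1-3p and let-7c-2-3p stand for 1 sequence, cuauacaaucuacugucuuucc, and carried identical values in every library, so the 12 names hold this strand under both. Of the 12 names, 0 passed the limma threshold in either direction, 2 had higher CCI-ION values without overlap (let-7a-2-3p and let-7i-3p), against 19.5% of all miRNAs, and 0 had lower ones, against 21.3%. With the repeated strand taken once, the 11 strands had a median log2 fold change of 0.09, with a range from -0.19 to 0.66, 5 below 0 and 6 above. The abundant let-7d-3p (4965 ± 285 to 4429 ± 827 normalized counts, SD, n = 3 each), let-7e-3p and let-7b-3p had log2 fold changes of -0.18, -0.13 and -0.19, with overlapping groups. let-7i-3p had 76.6, 93.9 and 86.0 normalized counts in sham and 100.5, 125 and 196 after CCI-ION (log2 fold change 0.66, standard error 0.27, adjusted p = 0.152, limma). miR-98-3p had 30.9, 30.8 and 21.9 in sham, against 32.6, 40.2 and 19.4 after CCI-ION, from 18 to 37 reads, and the groups overlapped (log2 fold change 0.09, adjusted p = 0.851, limma). The strands of let-7f, let-7f-1-3p and let-7f-2-3p, also overlapped between groups, with log2 fold changes of -0.12 and 0.51.

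The ratio of 5p to 3p was tested with limma across the 190 hairpins whose strands share a name, which hold 6 of the members. None of the 6 passed (0 calls, against 10.5% of all hairpins called), and 2 of the 6 and 62 of the 190 had an unadjusted p under 0.05. The ratio of miR-98 was 519.9, 422 and 575 in sham, against 159.9, 129 and 291 after CCI-ION, a log2 change of -1.46 (standard error 0.33, adjusted p = 0.0504, limma). That of let-7i was 3981, 2980 and 3608 in sham, against 2220, 1719 and 1112 after CCI-ION, a log2 change of -1.11 (standard error 0.29, adjusted p = 0.0660, limma). The log2 change of let-7g was -0.98 (standard error 0.39, adjusted p = 0.156, limma), with a 3p strand of only 8 to 23 reads; sham replicate 1 had a ratio of 36180.2, against 14209 and 17548 in the other sham libraries, and without it the log2 change was -0.60. In these 3 of the 6 hairpins every CCI-ION ratio was below every sham ratio, against 22.6% of all 190 hairpins. The ratios of let-7b, let-7d and let-7e overlapped between groups: 56.8 ± 1.77 and 55.1 ± 2.20 for let-7b, 8.90 ± 0.173 and 8.74 ± 1.19 for let-7d, and 71.4 ± 4.20 and 66.4 ± 3.48 for let-7e, with sham first and CCI-ION second (SD, n = 3 each). With both strands at a mean of at least 10, miR-98 (adjusted p = 0.0291, limma) and let-7i (adjusted p = 0.0410, limma) passed, where 19% of all hairpins were called. Without CCI-ION replicate 3 miR-98 passed (adjusted p = 0.0186, limma), where 12.2% were called.

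**Figure D5:**
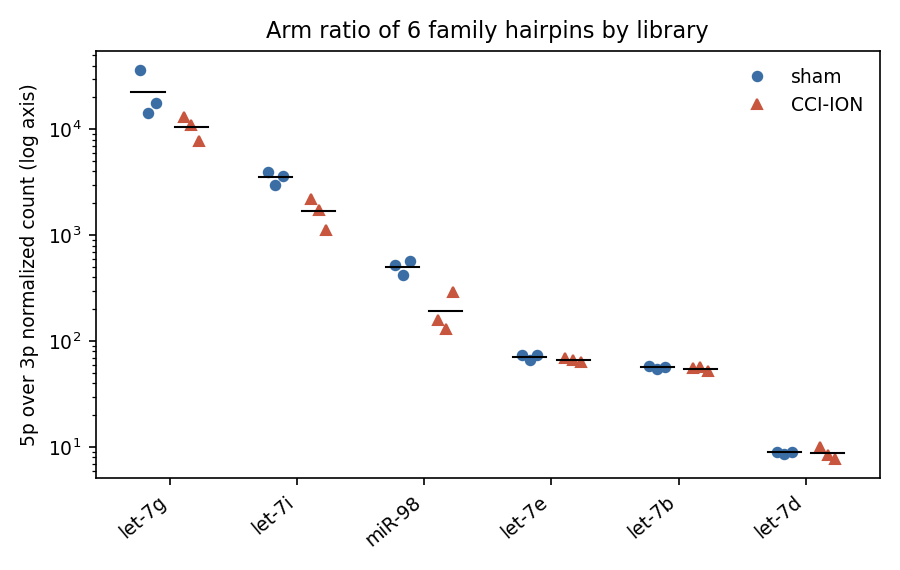
Ratio of the 5p to the 3p normalized count (log axis) of 6 family hairpins in each library, with sham libraries as circles, CCI-ION libraries as triangles and group means as lines. The CCI-ION ratios lie below all sham ratios for let-7g, let-7i and miR-98, and the groups overlap for let-7e, let-7b and let-7d.

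Some let-7 genes lie in clusters with genes of the miR-99/100 and miR-125 families, whose seeds are unrelated to that of let-7 and which are, like let-7, abundant in brain. Of 11 such partner strands of let-7a-2, let-7c-1 and let-7e, 0 passed the limma threshold (3.42% of all miRNAs were called each way). Without overlap, 4 of the 11 had higher CCI-ION values, against 19.5% of all miRNAs, and 1 had lower ones, against 21.3%, and their median log2 fold change was -0.14. miR-100-5p, partner of let-7a-2, went from 92225 ± 5241 to 129220.0 ± 10303 normalized counts (mean ± SD of 3 libraries; log2 fold change 0.49, standard error 0.12, adjusted p = 0.0649, limma). miR-99a-5p, partner of let-7c-1, went from 716995 ± 18858 to 901805 ± 113251 (mean ± SD of 3 libraries; log2 fold change 0.32, adjusted p = 0.150, limma). Around let-7e the log2 fold changes of the 5p partners had opposite signs, 0.41 for miR-99b-5p and -0.46 for miR-125a-5p. Neither passed the threshold (adjusted p = 0.107 and 0.146, limma), and the difference between them was not tested.

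Among the 355 other miRNAs with a mean of at least 100 normalized counts, the 3 whose pattern over the 6 libraries was closest to that of the summed family, by the root mean square difference of mean-centred log2 values, were miR-191a-3p (0.0401), miR-485-5p (0.0551) and miR-138-2-3p (0.0637). miR-485-5p, the most abundant of them, had 5327, 5008 and 5709 normalized counts in sham and 4161, 4486 and 3774 in CCI-ION rats. The median difference over the 355 was 0.301. Within the family let-7d-5p and let-7e-5p were the closest pair (0.0411), let-7f-5p was closest to let-7g-5p (0.0849), and the difference between let-7a-5p and let-7f-5p was 0.338.

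Markers of some cell types differed between the groups. For comparison, 3.42% of all 555 miRNAs tested were called lower and 3.42% higher (limma). For 4 neuronal miRNAs matched by name (miR-124-3p, miR-128-3p, miR-137-3p and miR-138-5p), the summed normalized count was 448819 to 685452 in sham and 259900.3 to 319246 in CCI-ION rats, and 1, miR-124-3p, passed the limma threshold as lower. Most of this sum was miR-128-3p, with a mean of 491235 in sham and 258095 in CCI-ION rats (adjusted p = 0.0597, limma). The 2 miRNAs of neuroendocrine hypothalamus, miR-7a-5p and miR-7b, summed to 2109492 to 3403383 and 936240.2 to 1547614, with 0 calls, and the 3 of oligodendrocytes to 9165 to 14031 and 7133 to 7612, with miR-338-3p called lower. The 4 of the vessel wall summed to 80232 to 105934 and 151501 to 165454, with miR-143-3p and miR-145-5p called higher; of the other two, miR-126a-3p had a log2 fold change of 0.44 and miR-126a-5p one of -0.91, both without overlap and neither called. Of all single miRNAs, 21.3% were lower and 19.5% higher without overlap, and in these 4 lists the sums did not overlap between groups. Those of 4 choroid plexus, 3 erythrocyte, 5 immune and 6 pituitary and epithelial miRNAs overlapped, with 0 calls; the pituitary and epithelial sum was 10541 to 15566 in sham and 13061 to 30452 in CCI-ION rats, a log2 ratio of the means of 0.86. No neuronal or neuroendocrine miRNA was at 0 in any library, while the oligodendrocyte miR-219a-5p and the erythrocyte miR-144-5p were listed at 0 in some; since the smallest value above 0 was worth 5 reads, a listed 0 may stand for fewer reads than that. miR-7a-5p took 16.8% to 24.4% of reads in sham and 7.90% to 13.5% in CCI-ION rats. The listed names held miR-9a-5p in place of the neuronal miR-9-5p, and miR-144-3p (erythrocytes) was matched to none. miR-9a-5p, more abundant than the other 4 neuronal miRNAs together, went from 1392227 ± 55332 to 1247795 ± 168367 normalized counts (mean ± SD of 3 libraries) with overlapping groups. With it the neuronal sum was 1829528 to 2029014 in sham and 1348238 to 1743089.7 in CCI-ION rats, a log2 ratio of the means of -0.34 in place of -0.91. The part of these differences in the values of the let-7 family was not tested.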

How the data were processed

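Small RNA sequencing of rat ARC gave 6 libraries, grouped by their labels. The signal that the authors deposited for each mature miRNA is a normalized count, worked out here to be reads divided by a median-of-ratios size factor: all 3372 values were whole multiples of 1 step per library (tolerance 0.02 reads), the smallest worth 5 reads. The submitters' processing notes name cutadapt 1.14, Bowtie 1.1.1 and rn6; mismatches, multiple hits, annotation and counting are not given in the sources used here. Deviations of same-numbered libraries from their group means were not correlated in every pair (r of -0.03, 0.19 and -0.01).

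log2(normalized count + 1) was compared with limma 3.58.1 in R 4.3.3, two-sided, without covariates, keeping miRNAs whose mean was 1 or more, with Benjamini-Hochberg adjustment over all 555. The deposited values are normalized, and the tests for counts planned as alternatives were not run on the reads recovered from them. Nothing says that libraries are separate animals, so p-values measure the spread between libraries. Upper-quartile factors used all 562 miRNAs. Named are the members, their 3p strands and cluster partners, and the 3 miRNAs most like the summed family; other names were chosen after values were seen. Members and lists were chosen with earlier results of these data known. Sequences are from RefSeq tables of GRCr8, matched by name.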

Additional observations from a re-analysis of the deposited data

How the results depend on the processing

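Members lower in CCI-ION rats and past the threshold numbered 1 as reported, 4 with upper-quartile factors, a minimum mean of 100, an intensity trend or a threshold of 0.1, 3 with a minimum mean of 10, and 0 with the replicate number as a block (replicate block), where 4 members had an unadjusted p under 0.05 and miR-98-5p an adjusted p of 0.0823 (limma); in this balanced design the block leaves fold changes as they are. Calls as lower over all miRNAs moved too, from 19 of 555 to 84 of 555 with upper-quartile factors, 51 of 364 with a minimum mean of 100, 44 of 555 with the trend, 52 of 555 at 0.1, 31 of 489 with a minimum mean of 10 and 2 of 555 with the block. With library totals 9 of 555 were called lower. Calls as higher were 19 of 555 as reported, 42 with library totals and 10 with upper-quartile factors. Without each library in turn the number of members was 1, with 4 to 20 of 553 to 557 miRNAs called lower. The samples share only a number. Members past the threshold as higher were 0 throughout. Hairpins of members past the threshold for the 5p to 3p ratio were 0 as reported, 2 with a minimum mean of 10, and 0 to 1 with a library left out. The summed family was at -0.17 with library totals and -0.62 with upper quartiles on the log2 scale, and between -0.43 and -0.33 with a library left out. miR-98-5p over the other members stayed between -1.09 and -0.92. Signs changed for let-7a-5p (0.15 with library totals, 0.0030 with totals without the most abundant miRNA, and -0.14 to 0.017 with a library left out), for let-7c-5p (0.095 with library totals) and for the 5p to 3p ratio of let-7d (-0.14 to 0.044 with a library left out). The cause of these changes was not tested. Models for counts were not run on the recovered reads. The 3p strands had as few as 8 reads in a library, which limits the ratios.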
